A study of Mus musculus with 24 samples.

Results

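H3K9ac at promoters was compared between spheroids with and without the gene Cpt1a. The cells were 4T1, derived from a mammary tumor of the mouse and able to seed metastases in the lung. Of the 24 samples in the series, 6 were used here: the 3 H3K9ac peak lists labelled CPT1a knockout and the 3 labelled scramble, chosen by title, out of 12 H3K9ac lists in all. The knockout samples grown with acetate were not among them. All 6 samples were spheroids grown on soft agar for 5 days with 75 µM palmitate, so both groups carried the added fatty acid. Both groups were derived from 4T1 cells carrying a doxycycline-inducible Cas9 and a puromycin-selected guide vector. In the knockout the guides cut different exons of Cpt1a, and in the scramble control the guide was directed against EGFP. Which guide a knockout library carried was not given, nor whether the lines were clonal. Nothing in the labels says that the 3 replicates of a group were separate cultures, so the p-values measure only the spread between these samples, which may be technical. The labels state no batch, so a batch and the genotype cannot be told apart.

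CPT1a sits in the outer mitochondrial membrane and couples long-chain fatty acids to carnitine, the step that admits them to mitochondrial beta-oxidation. Beta-oxidation releases acetyl-CoA, the donor of the acetyl groups that enzymes such as KAT2a place on histones and on other proteins. H3K9ac, acetylation of lysine 9 of histone H3, is found mainly around the start sites of active genes. The comparison asked at which promoters H3K9ac differed when the fatty acid was present but CPT1a was not.

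H3K9ac was mapped by ChIPmentation, in which immunoprecipitated chromatin is tagged by a transposase before sequencing. A promoter was the stretch within 1 kb of an annotated start of a protein-coding gene, and it was called in a library when a peak overlapped it. Promoters were called for 11132 to 11383 genes per scramble library and for 10932 to 11538 per knockout library, and 10775 of 21728 genes were called in all 6 libraries and tested. The level given for a promoter is its percentile, from 0 to 100, among those 10775 promoters of the same library when their strongest peaks are ordered by deposited fold enrichment over background. It is a place in an order and not an amount of acetylation: a uniform loss or gain of H3K9ac across all promoters would leave it unmoved. Drosophila chromatin was spiked in before sequencing, but no value scaled to it was used here. Sequencing totals were not among the values used here. The depth at which a list was called, as mean coverage of the genome by fragments, was worked back from the fold enrichment and p of its peaks on the assumption that the formulas of MACS2 hold. It was 2.52, 1.87 and 1.90 in scramble 1, 2 and 3 and 1.70, 1.56 and 0.554 in knockout 1, 2 and 3. Every knockout library was thus called at a lower depth than every scramble library. On the same assumption, scramble 1, knockout 1 and knockout 3 had been scaled by 0.747, 0.900 and 0.378 before peak calling, and the others had not. Spearman correlations of the percentiles between libraries were 0.777 to 0.826 within scramble, 0.666 to 0.760 within the knockout and 0.560 to 0.700 between the groups. Of the epithelial markers 9 of 10 were called in all 6 libraries, whereas 5 of 6 leukocyte, 4 of 6 fibroblast and 4 of 4 endothelial markers were called in none.

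Promoter H3K9ac was reordered in both directions. By limma on the percentiles, 241 promoters (2.24% of those tested) rose in the knockout and 235 (2.18%) fell at a Benjamini-Hochberg adjusted p under 0.05. The 3 knockout and 3 scramble percentiles did not overlap at 1671 promoters with the knockout higher (15.5%) and at 1656 with it lower (15.4%). At an unadjusted p under 0.05, limma placed 1391 higher (12.9%) and 1376 lower (12.8%), the shares beside which the list counts at that p are to be read. These numbers depend on every library: 17 to 79 promoters rose and 30 to 108 fell when scramble 1, scramble 2 or any 1 of the knockout libraries was left out, and none passed without scramble 3. Without scramble 3 the smallest limma adjusted p was 0.0562, and 1032 promoters were higher and 993 lower at an unadjusted p under 0.05. The lower depth of the knockout moved with the genotype. With fold enrichment recalculated at a common coverage of 0.55, 817 rose and 743 fell, and these included all 241 and 235. The recalculation rescaled each deposited peak and resampled no reads. Whether depth contributed to the calls was not tested.

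**Figure D1:**
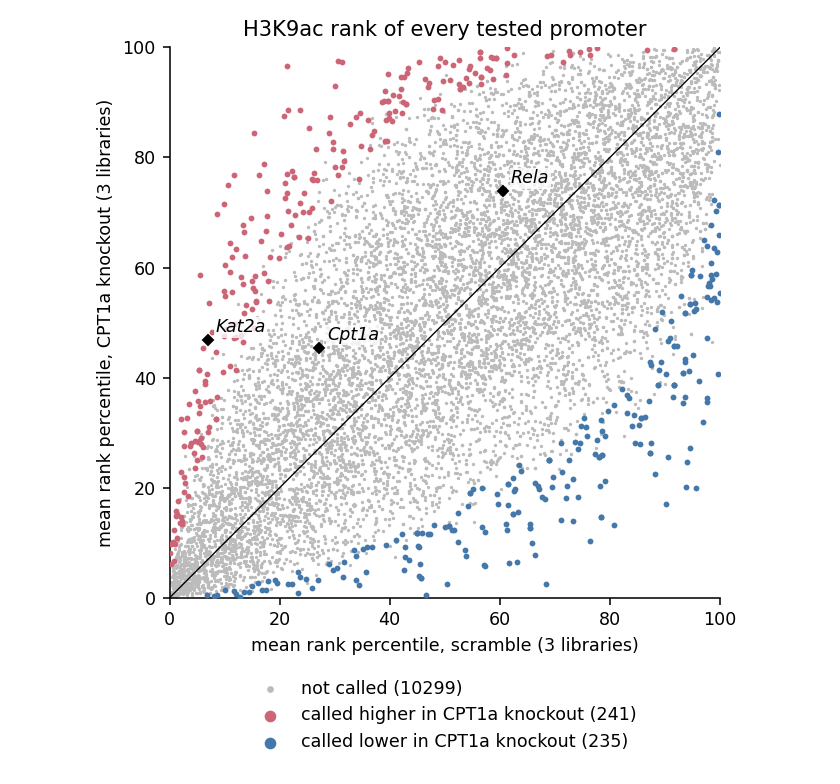
Mean percentile of each of the 10775 promoters in the 3 scramble libraries (x axis) against the mean in the 3 CPT1a knockout libraries (y axis), both from 0 to 100. Coloured points are the 241 promoters that rose and the 235 that fell, above and below the diagonal of equal percentiles, and Cpt1a, Kat2a and Rela are marked.

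The sequences of 5 promoters with large shifts are shown, 3 that rose and 2 that fell, because the promoters of the risers and fallers differed in base composition, as described further on. Each runs from 250 bases before to 50 bases into the transcript whose annotated start lies nearest the H3K9ac summit, read 5′ to 3′ on the gene's strand from GRCm38, and CpG dinucleotides are in capitals. Those that rose were Mob1b (chr5:88720727-88721026, plus strand), Zfp1 (chr8:111643287-111643586, plus strand) and Usf2 (chr7:30956190-30956489, minus strand).
Mob1b: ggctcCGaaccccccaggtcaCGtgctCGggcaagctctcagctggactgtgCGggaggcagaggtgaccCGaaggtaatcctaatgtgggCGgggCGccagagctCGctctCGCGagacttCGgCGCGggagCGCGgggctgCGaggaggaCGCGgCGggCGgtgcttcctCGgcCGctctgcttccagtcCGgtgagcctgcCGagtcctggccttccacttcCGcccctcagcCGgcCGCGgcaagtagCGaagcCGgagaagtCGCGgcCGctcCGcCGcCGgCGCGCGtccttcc
Zfp1: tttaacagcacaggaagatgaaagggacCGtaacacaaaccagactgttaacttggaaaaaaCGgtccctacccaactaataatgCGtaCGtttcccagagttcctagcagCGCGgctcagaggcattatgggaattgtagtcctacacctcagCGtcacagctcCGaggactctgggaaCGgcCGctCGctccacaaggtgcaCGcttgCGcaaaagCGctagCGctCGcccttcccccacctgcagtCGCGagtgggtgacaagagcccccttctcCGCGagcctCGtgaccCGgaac
Usf2: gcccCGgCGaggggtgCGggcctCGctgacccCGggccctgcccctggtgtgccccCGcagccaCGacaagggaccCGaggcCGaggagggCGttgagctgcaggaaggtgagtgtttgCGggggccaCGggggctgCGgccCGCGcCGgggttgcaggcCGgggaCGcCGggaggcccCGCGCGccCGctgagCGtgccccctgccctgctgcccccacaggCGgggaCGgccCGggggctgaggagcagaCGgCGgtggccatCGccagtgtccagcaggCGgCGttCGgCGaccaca
Those that fell were Zfp422 (chr6:116628652-116628951, minus strand) and Ifi211 (chr1:173912997-173913296, minus strand).
Zfp422: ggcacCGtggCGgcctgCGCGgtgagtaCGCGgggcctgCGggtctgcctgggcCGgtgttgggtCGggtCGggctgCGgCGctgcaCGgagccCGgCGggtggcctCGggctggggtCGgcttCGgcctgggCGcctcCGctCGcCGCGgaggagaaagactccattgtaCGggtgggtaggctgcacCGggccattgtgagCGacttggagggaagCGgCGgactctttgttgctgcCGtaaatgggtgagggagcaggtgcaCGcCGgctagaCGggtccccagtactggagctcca
Ifi211: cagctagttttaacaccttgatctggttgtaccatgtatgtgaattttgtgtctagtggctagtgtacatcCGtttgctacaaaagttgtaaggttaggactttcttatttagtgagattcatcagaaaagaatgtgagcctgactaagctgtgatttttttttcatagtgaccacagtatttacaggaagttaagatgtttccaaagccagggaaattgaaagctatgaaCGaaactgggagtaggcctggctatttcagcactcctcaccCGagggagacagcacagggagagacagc
The 3 risers held 39, 22 and 34 CpGs, Zfp422 held 32, and Ifi211 held 3. The summit lay 258 bases after the start in Mob1b, 120 after it in Zfp1 and 85 before it in Usf2, and 154 and 356 bases after it in Zfp422 and Ifi211.

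The largest gain was at Mob1b, which encodes an activator of the LATS kinases of the Hippo pathway. Its percentile was 5.16, 20.0 and 38.9 in scramble 1, 2 and 3 and 97.0, 94.6 and 98.2 in knockout 1, 2 and 3. The promoter thus went from the lower part of the order to the top of it in every knockout library, a difference of 75.3 percentile points (normal score difference 2.79 ± 0.38 SE, limma adjusted p = 0.0108). Zfp1, a zinc finger gene, had 19.3, 7.86 and 18.9 in scramble and 97.3, 78.2 and 78.1 in the knockout (limma adjusted p = 0.0171). Usf2, a transcription factor that binds E boxes, had 33.8, 5.10 and 25.9 against 78.7, 94.4 and 92.8 (limma adjusted p = 0.0185). In each of these genes the lowest knockout library was well above the highest scramble library. Ube2g1, a ubiquitin-conjugating enzyme, and Srsf6, a splicing factor, were also among the leading gains and stood near the top of the knockout order. The percentile of Ube2g1 was 14.1, 27.4 and 50.4 in scramble and 97.6, 98.2 and 97.0 in the knockout (limma adjusted p = 0.0108), and that of Srsf6 was 17.2, 52.4 and 24.2 against 96.4, 98.9 and 96.8 (limma adjusted p = 0.0108).

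The remaining leading gains were of 61.5 to 66.6 points. Etfa, which encodes a subunit of the electron transfer flavoprotein that takes electrons from the acyl-CoA dehydrogenases of beta-oxidation, had 18.1, 39.8 and 13.2 in scramble and 92.8, 81.3 and 91.7 in the knockout (limma adjusted p = 0.0172). Mrps26, of the mitochondrial ribosome, had 16.7, 48.3 and 25.4 against 93.5, 88.9 and 96.6. The transcriptional regulators Zfp335 and Zbtb10 rose by 66.6 and 65.0 points. Ptov1 rose by 61.8 points and Odf2, a component of centrioles, by 61.5, a call that was lost under quantile normalisation. Efcab9, a calcium sensor of sperm, rose from 18.6, 8.14 and 5.22 to 84.6, 66.6 and 73.8, and its peak also moved up in the order of widths.

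The largest loss was at Zfp422, a zinc finger gene, with 93.0, 99.1 and 95.0 in scramble and 5.63, 39.0 and 15.4 in the knockout, a difference of -75.7 points (limma adjusted p = 0.0108). Plscr2, of the phospholipid scramblase family, had 97.4, 90.4 and 93.8 against 22.5, 22.9 and 14.8 (limma adjusted p = 0.0108). Both promoters stood above the percentile of 90 in every scramble library and well below the middle of every knockout library. Cp, which encodes the copper-carrying ferroxidase ceruloplasmin, had 74.9, 57.4 and 73.0 in scramble and 2.1, 3.2 and 2.2 in the knockout. It had the smallest limma adjusted p of all promoters, 0.00540 (normal score difference -2.46 ± 0.24 SE), and its peak was also lower in the order of widths.

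Interferon-inducible genes of the p200 family, which sense DNA in the nucleus and cytosol, made up 3 of the 12 largest losses. Ifi211 had 94.2, 95.9 and 80.2 in scramble and 14.1, 15.1 and 21.9 in the knockout (limma adjusted p = 0.0108). Mndal had 95.6, 92.9 and 95.0 against 45.4, 9.68 and 26.4 (limma adjusted p = 0.0133), and Ifi204 had 98.1, 94.5 and 98.3 against 36.2, 22.1 and 37.7 (limma adjusted p = 0.0108). Their family has near-identical copies, so reads may be divided among them. Il7, a cytokine that sustains lymphocytes, fell from 84.8, 72.2 and 71.9 to 10.5, 16.4 and 4.12 (limma adjusted p = 0.0108). Lmo7, a LIM domain protein of cell junctions, fell by 69.4 points, Zfp503 by 67.5, Cdcp1, a transmembrane substrate of Src kinases, by 65.6, and Nav3, of the neuron navigator family, by 64.9. Adhfe1, a mitochondrial transhydrogenase, fell by 63.7 points, but its peak is shared with Rrs1, so the loss cannot be placed on either gene.

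**Figure D2:**
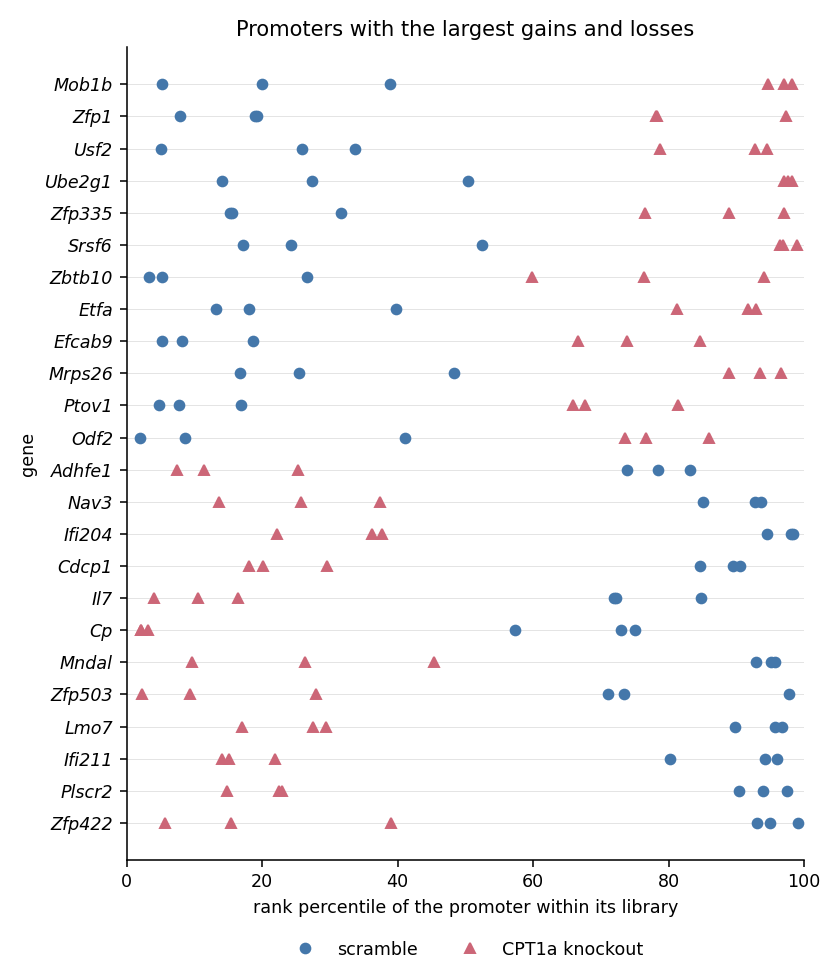
Percentile of H3K9ac fold enrichment within each library (x axis, 0 to 100) for the 12 promoters with the largest gains and the 12 with the largest losses, with 1 point for each of the 3 scramble and 3 CPT1a knockout libraries. The 2 groups of points do not overlap at any of the 24 genes, which the choice of genes required.

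At Cpt1a itself the percentile was 13.8, 40.2 and 27.5 in scramble and 29.4, 47.7 and 59.1 in the knockout. The groups overlapped and the difference of 18.2 points did not pass (limma adjusted p = 0.312). The guides cut exons and the peak lists show no edit, so H3K9ac at the promoter does not check the knockout, which the study examined by western blot. Kat2a, the acetyltransferase the study linked to CPT1a, rose from 6.13, 8.17 and 6.58 to 35.8, 43.7 and 61.0 (limma adjusted p = 0.0186), so that a promoter near the bottom of the scramble order stood in the middle of the knockout order. Rela, which encodes the NF-kB subunit p65, had 46.7, 66.4 and 68.7 against 69.9, 63.5 and 88.2 (difference 13.3, limma adjusted p = 0.489).

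The carnitine shuttle, Cpt1a included, showed no call among 6 tested genes by limma (none higher and 1 lower at an unadjusted p under 0.05). Its median difference was 4.1 points beside 0.215 over all genes. Cpt2, the inner-membrane partner of CPT1a, differed by 10.2 points (limma adjusted p = 0.631), Crat, carnitine acetyltransferase, by 3.93 (0.734), and the carriers Slc22a5 and Slc25a20 by 4.25 (0.802) and 0.97 (0.762). Crot, the peroxisomal carnitine octanoyltransferase, had 38.4, 31.2 and 28.8 in scramble and 10.1, 14.7 and 23.0 in the knockout without passing (limma adjusted p = 0.169). Of 21 tested genes of fatty acid beta-oxidation, 1 rose and 1 fell, with a median of -0.69 points that changed sign under 8 of 14 alternatives. The riser was Etfa, and the faller was Acadm, the medium-chain acyl-CoA dehydrogenase, which had 52.5, 65.2 and 52.7 in scramble and 6.81, 20.9 and 10.8 in the knockout (limma adjusted p = 0.0247). Both genes act in the same electron path from acyl-CoA to the respiratory chain, and their promoters moved in opposite directions. The call of Acadm was lost once the trend of percentiles with GC content was removed. None of 16 genes of acetyl-CoA supply and none of 17 genes of the tricarboxylic acid cycle passed. At an unadjusted p under 0.05, limma placed 1 acetyl-CoA gene higher and 2 lower, and 2 cycle genes higher and none lower, beside 12.9% and 12.8% of all promoters. Among 76 subunits of oxidative phosphorylation, Atp5g3, the c ring of ATP synthase, rose from 27.3, 58.1 and 72.5 to 99.1, 97.4 and 96.6 (limma adjusted p = 0.0256) and no other passed. Limma called none of 9 genes of fatty acid uptake and activation (median 7.6 points, 1 higher and none lower at an unadjusted p under 0.05), none of 17 of fatty acid synthesis (4.2, 2 higher and none lower, the median turning to -3.16 with the GC trend removed and to -1.51 without knockout 3) and none of 22 of cholesterol synthesis (1.6, 4 higher and 2 lower).

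Of 44 lists with at least 5 tested genes, 24 kept the sign of their median under all 14 alternatives and 20 changed it under at least 1. The list with the largest positive median was that of histone acetyltransferases, the enzymes that write marks such as H3K9ac. Of 17 tested, 3 rose (17.6%, beside 2.24% of all promoters) and none fell. Without overlap 6 were higher and 2 lower (35.3% and 11.8%, beside 15.5% and 15.4% of all promoters). The median difference was 27.8 points. By library, the median percentile of the 17 was 45.0, 40.5 and 50 in scramble and 81.8, 74.5 and 61.0 in the knockout, so the groups did not overlap. The median stayed between 22.7 and 32.2 when any 1 library was left out and was 28.5 with the GC trend removed. Clock, a circadian factor with acetyltransferase activity, rose from 50.1, 45.6 and 50.8 to 92.2, 96.6 and 83.3 (limma adjusted p = 0.0393), a call that was lost with the GC trend removed. Kat2a is given above. Ncoa1, a nuclear receptor coactivator named here after its values were seen, rose from 10.0, 10.3 and 10.6 to 68.0, 27.5 and 51.0 (limma adjusted p = 0.0393).

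Other acetyltransferases had positive differences that did not pass, and these are likewise named with their values known. The difference was 42.6 points at Ncoa3 (limma adjusted p = 0.0731), 40.7 at Ncoa2 (0.0815), 34.4 at Kat5 (0.0857), 31.3 at Kat2b (0.156) and 18.9 at Crebbp (0.327). At Ep300, whose product p300 acetylates many promoters and enhancers, the percentile was 96.1 to 98.5 in scramble and 98.4 to 99.1 in the knockout, so this promoter was near the top in both groups. Taf1 had the lowest difference of the list, -26.3 points (limma adjusted p = 0.170). Related lists held no call by limma. Among 17 deacetylases and sirtuins, which remove the mark, the median was 5.5 points, with 1 higher and 3 lower at an unadjusted p under 0.05. Among 29 readers of acetyl-lysine it was -1.0 (3 higher, 1 lower), and among 23 subunits of SAGA and ATAC, the complexes that carry KAT2a, it was 1.4 (4 higher, 2 lower). The medians of the readers and of SAGA and ATAC changed sign under 6 and 4 of 14 alternatives. Among 17 methyltransferases and demethylases of H3K9 the median was 7.9, and 4 were higher and none lower both at that p and without overlap. Of these, the demethylase Kdm1a had 58.4, 51.2 and 62.2 against 93.7, 87.9 and 91.2 (limma adjusted p = 0.0582).

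Genes of replication-dependent histones, which are made in S phase to package new DNA, had the opposite pattern. Of 63 tested, 5 fell (7.94%, beside 2.18% of all promoters) and none rose, and the median difference was -18.0 points. Without overlap 30 were lower (47.6%, beside 15.4% of all promoters) and none higher. At an unadjusted p under 0.05, 30 were lower and none higher by limma. The 63 genes stand on 41 distinct peaks, since many are pairs with 1 shared start region, and the genes are near-identical copies whose reads may be divided among them, so the count of genes overstates the number of separate loci. Hist1h1c, a linker histone, fell from 96.3, 72.9 and 86.8 to 37.4, 40.2 and 16.7 (limma adjusted p = 0.0343). Hist3h2a fell by 60.9 points, but its peak is shared with Trim17 and its difference turned to 17.2 when the summit had to lie in the promoter. Hist1h4k, Hist1h4f and Hist1h4b, which all encode histone H4 and are named after their values were seen, fell (differences of -51.7, -39.4 and -35.4 points), and the call of Hist1h4b was lost when the summit had to lie in the promoter and when the GC trend was removed. The histone list spans the main cluster on chromosome 13, whose 439 tested genes had a median difference of -6.30 points.

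**Figure D3:**
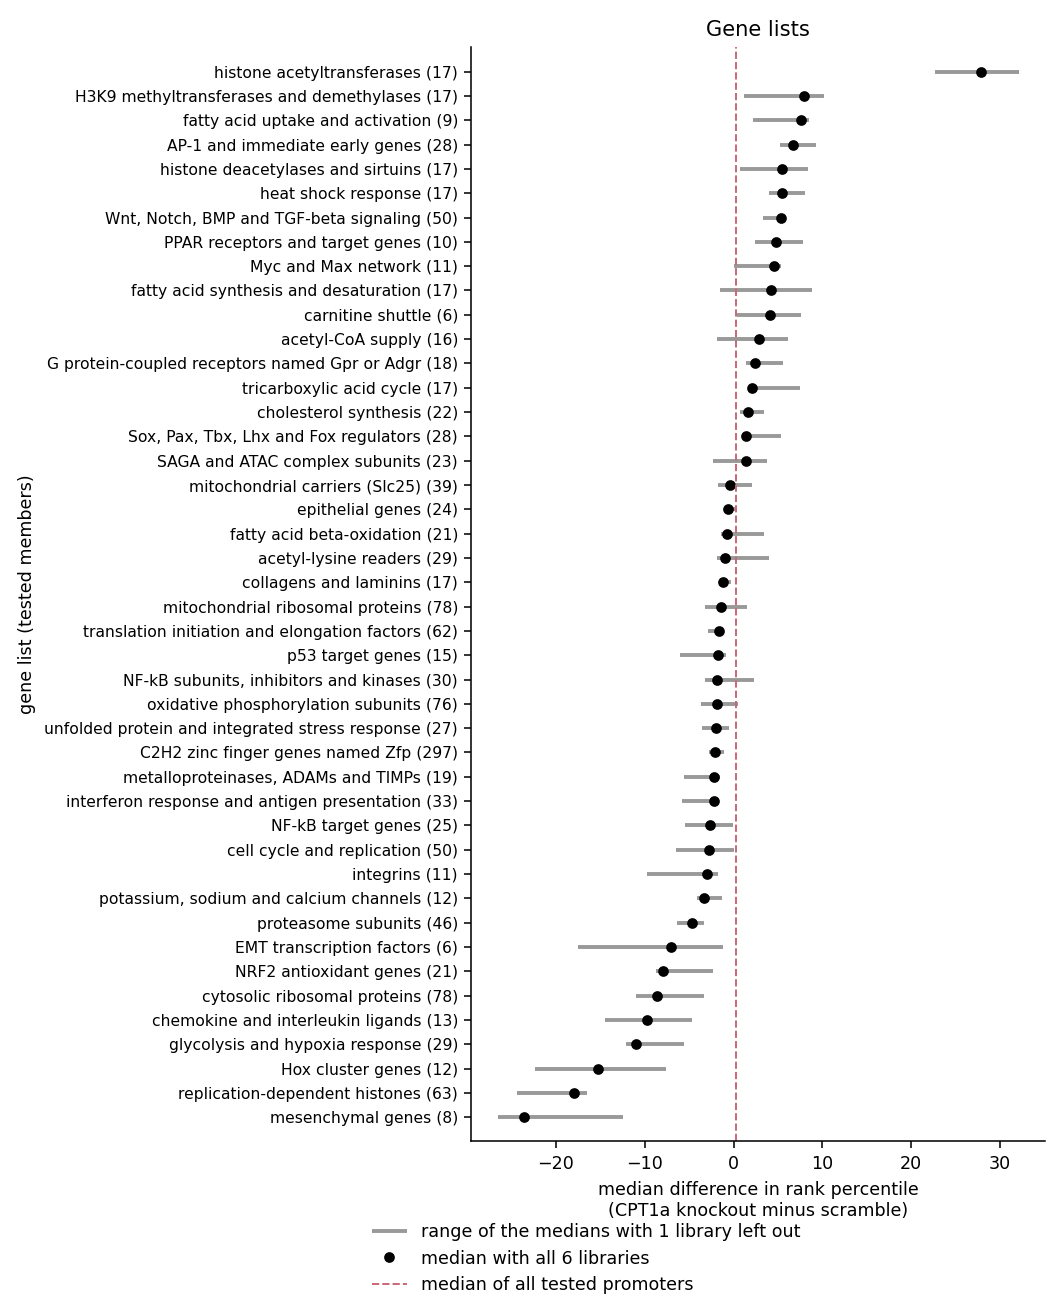
Median difference in percentile, CPT1a knockout minus scramble (x axis, percentile points), for the gene lists with at least 5 tested promoters, as points with the range over leaving out each library as lines, and a dashed line at 0.215 for all genes. Histone acetyltransferases stand highest at 27.8 points, and mesenchymal genes (8 tested) and replication-dependent histones stand lowest at -23.6 and -18.0.

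Lists of housekeeping genes held few calls. Of 78 cytosolic ribosomal protein genes, limma called none in either direction. At an unadjusted p under 0.05, 15 were lower (beside 12.8% of all promoters) and none higher. Without overlap 15 were likewise lower (19.2%, beside 15.4% of all promoters) and none higher. The median percentile of the 78 was 91.8, 92.1 and 95.3 in scramble and 76.1, 84.7 and 84.9 in the knockout. The median difference was -8.6 points (-11.0 to -3.31 without a library). The proteasome, with 46 subunits tested, had a median of -4.7 and no call by limma (5 higher and 7 lower at an unadjusted p under 0.05, beside 12.9% and 12.8% of all promoters). Mitochondrial ribosomal proteins, with 78 tested, had a median of -1.4 that changed sign under 3 of 14 alternatives. Mrps26 rose and Mrpl1 fell by 49.4 points (limma adjusted p = 0.0366), the latter call being lost with the GC trend removed and under quantile normalisation. In the list of translation factors, with 62 tested, 1 gene fell, Eef2kmt (-46.6, limma adjusted p = 0.0287). It encodes the methyltransferase of elongation factor 2 and is not itself a translation factor.

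Calls at NF-kB genes were few in number. Of 30 subunits, inhibitors and kinases 2 fell (6.67%, beside 2.18% of all promoters) and none rose. At an unadjusted p under 0.05 limma placed 5 higher and 5 lower, beside 12.9% and 12.8% of all promoters. The median difference was -1.9 points, of the other sign under 8 of 14 alternatives. Both fallers encode inhibitors of the pathway. Tnfaip3, the ubiquitin-editing inhibitor A20, went from 82.4, 78.9 and 91.7 to 45.4, 30.9 and 23.1 (limma adjusted p = 0.0299), and Tnip1, which binds A20, went from 48.8, 57.6 and 43.8 to 11.4, 10.4 and 16.7 (limma adjusted p = 0.0293). Inhibitors did not all move this way: Tnip2, a relative of Tnip1 outside the list and named after its values were seen, rose from 22.0, 17.7 and 15.1 to 56.998, 61.5 and 67.4 (limma adjusted p = 0.0269). Of 25 NF-kB target genes tested, 1 rose and 2 fell (4% and 8%, beside 2.24% and 2.18% of all promoters). Their median of -2.6 points became -11.0 when the GC trend was removed. The fallers were Tnfaip3 again and Ptgs2, the inducible cyclooxygenase, with 98.8, 86.6 and 95.4 against 39.7, 19.5 and 71.1 (limma adjusted p = 0.0393). The riser was Ninj1, a membrane protein of cell rupture, with 7.54, 13.1 and 5.44 against 26.8, 41.8 and 40.8 (limma adjusted p = 0.0401). The calls of Ptgs2 and Ninj1 were lost when the GC trend was removed. Some NF-kB targets had been chosen by the study for PCR. Of these, Jag1, a Notch ligand, Tnfaip2 and Ptpn13 could be tested and differed by -10.6, -5.14 and 3.12 points (limma adjusted p = 0.664, 0.838 and 0.904).

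Among 6 factors of the epithelial to mesenchymal transition 2 fell (33.3%, beside 2.18% of all promoters) and none rose. The median difference was -7.06 points and turned to 5.67 under 1 of 14 alternatives. Without passing, Twist1 differed by 34.1 points, Tcf3 by 14.1, Zeb2 by 7.16 and Snai1 by -21.3 (limma adjusted p = 0.151, 0.215, 0.769 and 0.296). Foxc2 went from 84.5, 80.7 and 72.2 to 33.3, 21.4 and 9.17 (limma adjusted p = 0.0201). Tcf4, a basic helix-loop-helix factor, went from 99.9, 95.4 and 100.0 to 52.5, 76.6 and 46.6 (limma adjusted p = 0.0219), so it left the very top of the order. Of 8 mesenchymal genes tested 1 fell, Sparc, a matricellular protein, with 33.6, 43.7 and 24.6 against 7.34, 7.28 and 8.11 (limma adjusted p = 0.0381), and the median of the 8 was -23.6 points (-26.6 to -12.5 without a library). With genes called in at least 1 of the 6 libraries included it was -1.45. Vim, the mesenchymal intermediate filament, had 97.2, 76.4 and 83.7 against 20.9, 60.9 and 96.9, with wide spread in the knockout (limma adjusted p = 0.454). None of 24 epithelial genes passed and their median was -0.62. At an unadjusted p under 0.05 limma placed 3 of them higher and 1 lower. Epcam, an epithelial adhesion molecule, had 11.0, 12.9 and 14.5 against 31.9, 34.6 and 26.8 (limma adjusted p = 0.108). No basal mammary gene of 10 was called in any library.

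Lists of cytokine, interferon, matrix, channel and receptor genes held 1 or 2 calls each, beside the 2.18% of all promoters that fell. Of 13 chemokine and interleukin ligands tested Il7 fell, and the median was -9.7 points. Of 33 interferon response and antigen presentation genes 2 fell and none rose, with a median of -2.3. Without overlap 8 were lower and 3 higher (24.2% and 9.09%, beside 15.4% and 15.5% of all promoters). Gbp2, a guanylate-binding GTPase, went from 34.6, 15.6 and 44.5 to 1.21, 9.19 and 0.919, and Isg15, the ubiquitin-like modifier, from 3.10, 14.9 and 7.67 to 0.914, 0.441 and 0.176 (limma adjusted p = 0.0352 and 0.0393). Isg15 was thus already low in scramble, and both calls were lost when the GC trend was removed. Of 17 collagens and laminins Col8a1 fell by 46.4 points (limma adjusted p = 0.0119), and of 19 metalloproteinases and inhibitors Adamts6 fell by 37.5 (limma adjusted p = 0.0171). Among channels and orphan receptors, the potassium channel Kcnk2 fell by 57.8 points and the receptor Gpr39 by 46.5 (limma adjusted p = 0.0475 and 0.0368). With all 6 libraries kept and no block, the call of Kcnk2 was lost under a stricter peak threshold, the summit rule, the GC trend and quantile normalisation. That of Gpr39 was lost under quantile normalisation.

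Lists of stress genes held at most 1 call each. Gclc, the catalytic subunit of the first enzyme of glutathione synthesis, went from 96.8, 89.3 and 93.5 to 37.2, 46.9 and 21.9 (limma adjusted p = 0.0185), and the 21 NRF2 antioxidant genes had a median of -7.9 points. The 29 genes of glycolysis and the hypoxia response had a median of -11.0. Without overlap 9 of these genes were lower and 1 higher (31.0% and 3.45%, beside 15.4% and 15.5% of all promoters). Their 1 call, Bnip3l, a mitophagy receptor, fell by 39.4 points but turned to 4.11 when the summit had to lie in the promoter. Pdia4, a chaperone of the endoplasmic reticulum, had 98.5, 98.8 and 99.3 against 77.2, 69.5 and 16.9 (limma adjusted p = 0.0285, lost under quantile normalisation). The 17 heat shock genes held no call. At an unadjusted p under 0.05 limma placed 4 of them higher (beside 12.9% of all promoters) and none lower, and Hsp90aa1, the inducible chaperone, had 65.7, 40.2 and 56.0 against 93.5, 81.5 and 83.6 (limma adjusted p = 0.0964).

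Of 50 cell cycle and replication genes 2 rose and 2 fell (4% each way, beside 2.24% and 2.18% of all promoters). Without overlap 5 were higher and 8 lower (10% and 16%, beside 15.5% and 15.4% of all promoters). Ccne1, the cyclin that drives entry into S phase, went from 1.20, 10.3 and 2.14 to 55.2, 22.9 and 34.6 (limma adjusted p = 0.0293). Mcm7, a subunit of the replicative helicase, rose by 38.0 points on a peak it shares with Ap4m1, and its call was lost when the GC trend was removed. Rb1, the retinoblastoma tumor suppressor that restrains the same transition, went from 98.6, 95.0 and 99.2 to 43.5, 30.0 and 35.4 (limma adjusted p = 0.0108), and its relative Rbl1 fell by 33.7 points (limma adjusted p = 0.0387, lost under quantile normalisation). The call of Rb1 was lost when the summit had to lie in the promoter. Of 28 AP-1 and immediate early genes Maff rose by 40.1 points (limma adjusted p = 0.0451), a call that was lost with the GC trend removed, which also took the median of the list from 6.7 to -0.4. The Myc and Max network (11 tested, median 4.6, but -4.50 ranked by -log10 p and -2.04 with the GC trend removed) and the p53 targets (15 tested, median -1.8) held no call by limma, with 2 higher and 1 lower, and 2 higher and none lower, at an unadjusted p under 0.05.

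Developmental regulators moved both ways. In Wnt, Notch, BMP and TGF-beta signaling, with 50 tested, 1 rose (2%, beside 2.24% of all promoters). The median was 5.3 points, and 1.01 with the GC trend removed. The riser was Acvr1b, an activin receptor, with 48.0, 38.5 and 21.6 against 87.7, 84.0 and 89.0 (limma adjusted p = 0.0293, lost with the GC trend removed). Of 12 Hox genes, which stood on 10 distinct peaks, Hoxa9 fell from 83.1, 76.6 and 82.4 to 18.7, 49.6 and 36.5 (limma adjusted p = 0.0452, lost under quantile normalisation). The median of the Hox genes was -15.2 (-22.3 to -7.60 without a library) and turned to 0.24 when the summit had to lie in the promoter. Of 28 Sox, Pax, Tbx, Lhx and Fox genes 3 fell and 1 rose (10.7% and 3.57%, beside 2.18% and 2.24% of all promoters). Sox5 went from 74.1, 38.8 and 71.9 to 11.9, 4.07 and 3.08 (limma adjusted p = 0.0171). The riser was Foxp3, on a peak shared with Ppp1r3f. In the largest family, 297 zinc finger genes named Zfp, 9 rose and 10 fell (3.03% and 3.37%, beside 2.24% and 2.18% of all promoters). Without overlap 42 were higher and 69 lower (14.1% and 23.2%, beside 15.5% and 15.4% of all promoters). The family held both the strongest faller, Zfp422, and a leading riser, Zfp1. Of 39 mitochondrial carriers Slc25a42, which carries coenzyme A, rose by 23.1 points (limma adjusted p = 0.0413), a call that was lost with the GC trend removed.

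The promoters that rose and those that fell differed in base composition. Across the promoter windows the median GC content was 50.3% for all tested genes, 53.6% for the risers and 46.8% for the fallers. Promoters were split by GC content into 10 bins of equal size. In the bin with the lowest GC, 12 rose and 54 fell (1.11% and 5.01%) and the median difference was -6.34 points, whereas in the bin with the highest GC 60 rose and 4 fell (5.57% and 0.371%) and the median was 7.53. GC content therefore moved with the difference over the whole range. Removing the trend in each library left 173 risers and 164 fallers, whose median GC was 49.0% and 49.6%, and 139 of the 241 risers and 147 of the 235 fallers were among them. By chromosome, 19 promoters fell and 4 rose on chromosome 13 (4.33% and 0.911%, beside 2.18% and 2.24% of all promoters). On chromosome 6, 21 fell and 5 rose (4.21% and 1.00%), and on chromosome 14, 15 fell and 3 rose (4.17% and 0.833%). On chromosome X, 12 rose and 1 fell (4.12% and 0.344%), and on chromosome 11, 31 rose and 16 fell (3.41% and 1.76%). On chromosome 7 the 21 that rose (2.60%) were near the share of all promoters, while 8 fell (0.991%).

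**Figure D4:**
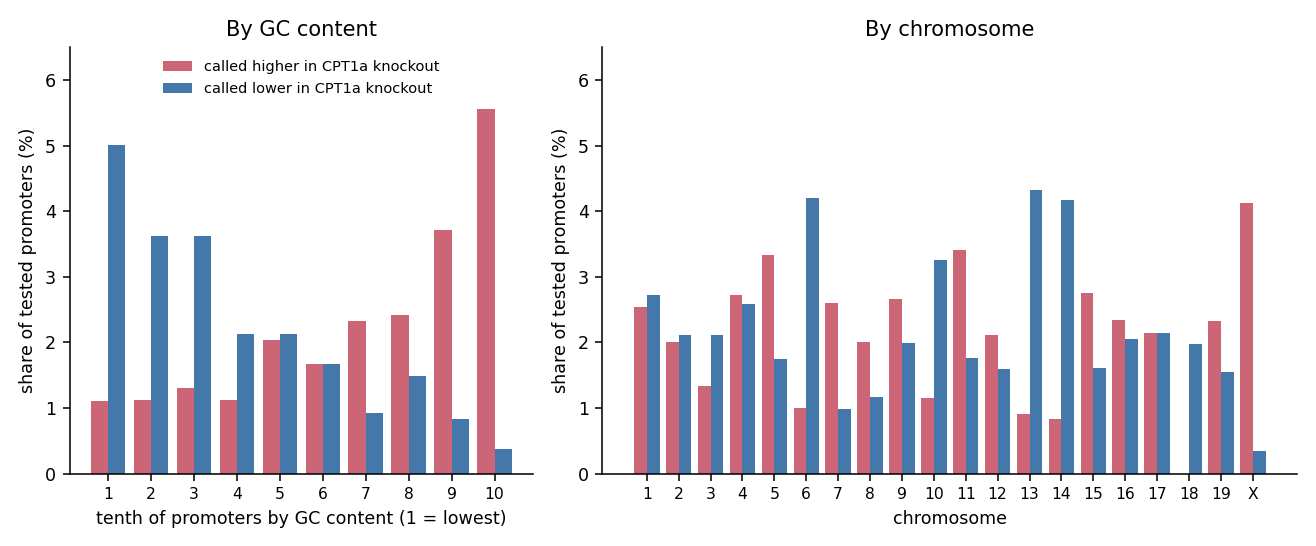
Share of promoters (percent) that rose or fell by bin of promoter GC content (10 bins of equal size) and by chromosome. From the lowest to the highest bin the share that fell goes from 5.01% to 0.371% and the share that rose from 1.11% to 5.57%.

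The same contrast was present in the 300 bases around the start that the sequences above display, which were read for 10772 of the 10775 genes. Risers had a median of 31 CpGs and a GC content of 70.3%, all genes 25 and 64.0%, and fallers 17 and 57.2%. Fewer than 10 CpGs were present in 4 risers (1.66%) and in 65 fallers (27.8%), beside 9.12% of all promoters. Motifs were searched as exact letters on both strands. The GC box GGGCGG was present in 81.3% of risers, 68.4% of all promoters and 51.7% of fallers. The TATA box TATAAA was present in 3.73%, 4.53% and 11.1%, and the CCAAT box CCAAT in 26.1%, 33.6% and 39.7%. The AP-1 motif TGACTCA was present in 2.07%, 2.93% and 5.98%, and the ETS motif CCGGAAG in 10.8%, 19.9% and 13.2%. The E box CACGTG (7.88%, 9.56% and 8.12%), the CRE TGACGTCA (5.39%, 3.13% and 4.70%) and the NRF1 motif GCATGCGC (3.73%, 5.06% and 4.70%) had shares within 3 percentage points of each other in the 3 sets. The NF-kB motif GGGACTTTC was found in 46 promoters (0.427%), none of them a riser or a faller. These are matches of letters, some of which follow base composition, and not bound sites. Of the printed sequences Mob1b holds a GC box and an E box, and the other 4 hold none of the listed motifs.

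Some promoters were called in only 1 group. Of 21728 genes, 28 (0.129%) were called in the 3 knockout libraries and in no scramble library, and 22 (0.101%) in the 3 scramble libraries and in no knockout library. Unnamed gene models and Rik genes made up 2 of the 28 and 6 of the 22 and are not named here. The mean fold enrichment of the 28 ran from 3.93 to 10.8 and that of the 22 from 3.54 to 33.5, the highest of the latter being such a model. At Camk2n1, an inhibitor of CaM kinase II, the fold enrichment of the knockout peaks was 8.58 to 13.4, at Inhbb, the beta B subunit of activin and inhibin, 6.86 to 9.41, and at Cmpk2, a mitochondrial nucleotide kinase induced by interferon, 5.42 to 12.5. Camk4, a calcium-dependent kinase, had 6.30 to 11.95, Scrt1, a zinc finger repressor, 5.38 to 13.8, and Akap17b 6.25 to 10.6. Tpm3-rs7 (7.28 to 11.4) and Eif3j2 (7.71 to 11.3) have close copies elsewhere in the genome, so their reads may come from those copies. By summit, 27 of the 28 were still called only in the knockout, the exception being Scrt1. With all lists brought to the common coverage, 285 promoters were called only in the knockout and 15 only in scramble. Without knockout 3, the library of lowest depth, 149 were called only in the knockout.

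On the scramble side, the fold enrichment was 16.7 to 24.3 at Glyctk, glycerate kinase, 12.4 to 20.5 at Bricd5, 6.40 to 10.5 at Gckr, the regulator of glucokinase, and 6.76 to 9.84 at Rasef, a Rab GTPase. AC117239.2 had 8.14 to 9.31, Fam166a 3.93 to 16.6, Btg4 5.37 to 10.7, and Gng3 and Bscl2, on the same peak, 4.60 to 8.06. Of the 22, 11 were still called only in scramble when the summit had to lie in the promoter. No summit did so at Glyctk, Gckr and Gng3, where the peak overlapped the promoter with its summit outside. At the common coverage 9 of the 22 were still called only in scramble, and 20 of the 28 only in the knockout. Fam166a, Btg4, Gng3 and Bscl2 were not among the 9. The median GC content of the promoters called only in the knockout was 56.1% and of those called only in scramble 49.3%.

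Peaks in the knockout were fewer per promoter and shorter. The number of peaks per called promoter was 1.57, 1.68 and 1.73 in scramble and 1.20, 1.26 and 1.29 in the knockout (1.66 ± 0.0832 against 1.25 ± 0.0443, SD, n = 3 each). The median width of the strongest promoter peak was 2784, 2069 and 2161 bp in scramble and 1995, 2007 and 1432 bp in the knockout (2338 ± 389 against 1811 ± 329, SD, n = 3 each). Neither value overlapped between the groups, and each reached the smallest two-sided exact permutation p that 3 against 3 allows, 0.1 (0.2 after adjustment over 4 values). The difference in width, -527 bp, was -304 bp without scramble 1, -337 bp without knockout 3 and -1246 bp with peaks within 500 bp merged. More than 1 peak stood at 42.8, 52.2 and 54.5% of called promoters in scramble and at 16.9, 21.6 and 24.7% in the knockout. Merging peaks within 500 bp brought the number of peaks per promoter to 1.15 and 1.08, and at the common coverage it was 1.32 and 1.19, with libraries that overlapped (1.22, 1.37 and 1.37 against 1.125, 1.16 and 1.29). The number of promoters called did not separate the groups (11241.3 ± 129 against 11300 ± 323, SD, n = 3 each, exact permutation p = 0.8) in the lists as deposited. At the common coverage they did separate, with 10535, 10572 and 10401 in scramble and 11087, 11201 and 10922 in the knockout. The share of peaks at promoters was 46.1, 56.9 and 51.2% against 57.9, 54.7 and 76.2% (exact permutation p = 0.2), and knockout 3 held the highest share. At the common coverage the order was the opposite and without overlap, with 79.5, 81.4 and 79.7% in scramble and 73.8, 70.4 and 76.4% in the knockout.

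**Figure D5:**
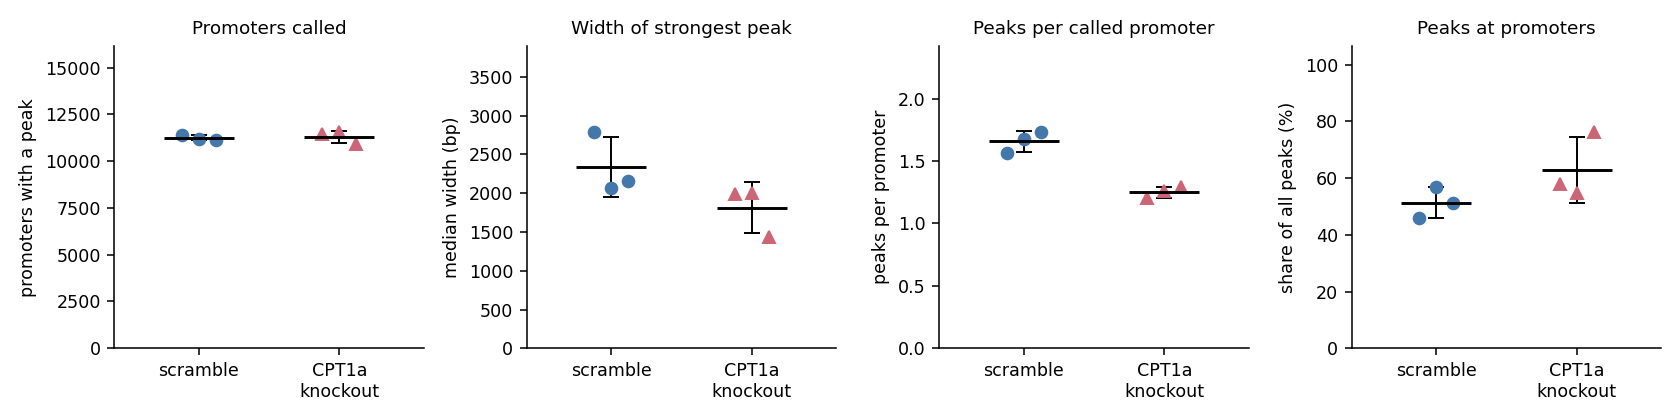
Library values in the 3 scramble and 3 CPT1a knockout libraries, with 1 point per library and the mean and SD as bars: promoters called, median promoter peak width (bp), peaks per called promoter and share of peaks at promoters (percent). Peaks per promoter run from 1.57 to 1.73 in scramble and from 1.20 to 1.29 in the knockout.

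Width was tested in the same way as fold enrichment, by its order within a library. Against the general shortening, 327 promoters (3.03%) had a wider peak relative to the others in the knockout and 195 (1.81%) a narrower one by limma at an adjusted p under 0.05. Rank and width were largely different sets: of the 241 promoters that rose in fold enrichment, 25 became relatively wider and 1 narrower, and of the 235 that fell, 15 became narrower and 2 wider. Among the wider peaks were those of Klf10, a repressor induced by TGF-beta, with 2337, 1308 and 1316 bp in scramble and 3645, 3813 and 3496 bp in the knockout (limma adjusted p = 0.00795), and Foxo3, a forkhead factor restrained by insulin signaling, with 2333, 790 and 1119 bp against 3471, 3504 and 2105 bp (limma adjusted p = 0.0141). Tent4a, a poly(A) polymerase, had 1998, 1568 and 1889 bp against 4625, 4959 and 3628 bp (limma adjusted p = 0.00207). At Klf10 and Tent4a every knockout peak was longer in base pairs than every scramble peak, in libraries whose typical peak was shorter. At Foxo3 the peak of knockout 3 was shorter than that of scramble 1. Klf16 (553 to 2230 bp against 2913 to 4363 bp), Nav2 (944 to 2382 bp against 2555 to 4911 bp) and Glud1, glutamate dehydrogenase (1033 to 1585 bp against 1960 to 3957 bp), were the other leading gains, and the calls of Klf16 and Glud1 were lost when neighboring peaks were merged.

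Among the narrower peaks, that of Dalrd3 measured 6200, 4577 and 6316 bp in scramble and 951, 1171 and 749 bp in the knockout (limma adjusted p = 0.000985), and that of Dqx1 5834, 5084 and 5171 bp against 979, 1022 and 734 bp (limma adjusted p = 0.000981). Ppp1r12b, a regulator of myosin phosphatase, had 5178 to 5557 bp against 871 to 1193 bp, Man2b1, a lysosomal mannosidase, 3959 to 4828 bp against 699 to 1232 bp, and Ino80b, a subunit of the INO80 remodeler, 3680 to 5888 bp against 659 to 1483 bp. M1ap had 9638, 1956 and 8481 bp against 923, 1112 and 224 bp, with scramble 2 far from the other 2 scramble libraries. Dqx1, Man2b1 and M1ap also fell in fold enrichment. The call of Dqx1 was lost when neighboring peaks were merged, and that of Ppp1r12b when the lengths of all peaks at the promoter were summed. Merging raised the numbers of width calls to 598 wider and 476 narrower, and 34 to 53 calls in each direction were left without knockout 1 or knockout 2.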

How the data were processed

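H3K9ac ChIPmentation of 6 libraries was analysed from the deposited peak lists on mm10 (GRCm38). The submitters' processing notes name FastQC, Bowtie2, SAMtools, deepTools and MACS2, and the methods name BWA, so the aligner is not settled. Drosophila chromatin was spiked in per the methods and the build dm6 is listed. Whether either entered the deposited peaks is not given in the sources used here. The authors called peaks per sample and deposited for each peak a fold enrichment (a ratio to background) and -log10 p and -log10 q values, all at a -log10 q of at least 2.0. The score the authors deposited with each peak is its -log10 q in multiplied and rounded form and was not used. Whether the inputs served as control was not settled, and the inputs were not used here. Peaks on chromosome Y were left out of the tests.

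Promoters reached 1 kb to each side of every protein-coding transcription start in the GENCODE vM21 annotation, and an overlap of 1 bp sufficed. The strongest peak of a promoter was ranked within its library among the 10775 genes called in all 6, the percentile was turned into a normal score, and the 3 and 3 scores were compared with limma 3.58.1 in R 4.3.3 (lmFit, eBayes with trend, Benjamini-Hochberg over all 10775). Peak width was treated alike. Library values were compared by two-sided exact permutation tests. The scripts were tested on simulated data. Gene lists are described by counts and medians, without a test. Genes were named by rule: the 12 largest gains and losses without overlap, Cpt1a, Kat2a and Rela, the 2 largest called gains and losses of each list and any member of lists of 12 or fewer, the 8 strongest promoters called in 1 group only, the 6 largest width changes each way, and the markers. Gene models named Gm with digits and names ending in Rik were counted but not named. The members and lists were chosen with earlier results of these data known. Alternatives changed the ranked value, scale, depth, GC trend, gene filter, peak threshold, summit rule, merging, the block of replicate numbers and the libraries. Same-numbered libraries did not deviate together (correlations 0.00651, -0.00791 and -0.0240), so the numbers pair nothing. Of the 10775 promoters, 2352 (21.8%) share their strongest peak with another gene. Guide sequences were not used here, and the sequence of 1 promoter is not reported here.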

Additional observations from a re-analysis of the deposited data

Results flagged for a closer look

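Peaks on chromosome Y, which entered no comparison, were present in every list: 40, 23 and 22 in scramble 1, 2 and 3, and 37, 30 and 11 in CPT1a knockout 1, 2 and 3. They were noted because they lie outside the promoters tested, the groups overlapped, and no cause was tested.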

How the results depend on the processing

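Of the 476 promoters that rose or fell, 468 kept their direction under every alternative, and 110 risers and 110 fallers kept their call under the 8 that changed the ranked value, scale, depth, GC trend, gene filter, threshold or summit rule. Of 58 called genes named by rule, 38 kept it under each of those 8 in which they were tested. Risers and fallers numbered 817 and 743 with fold enrichment at a common coverage, an alternative chosen after seeing the data, 1688 and 1646 when ranked by -log10 p, 156 and 159 on quantile-normalised log2 fold enrichment, and 0 to 79 and 0 to 108 when a library was left out. Leaving out any of the 6 moved both counts by over 1.5 times. The counts without knockout 1, 2 and 3 were 79, 53 and 53 risers and 108, 66 and 64 fallers, and without scramble 1, 2 and 3 they were 17, 25 and 0 risers and 30, 47 and 0 fallers. With the replicate number as a block, which pairs nothing here, 21 and 42 promoters and 24 of the 58 genes were called, and 1 peak was relatively wider and 5 narrower. Wider and narrower peaks numbered 598 and 476 with peaks within 500 bp merged, 706 and 553 with lengths summed, and 49 to 444 and 34 to 186 without a library (104 and 39 without scramble 3). Promoters called only in the knockout numbered 121 by summit, 285 at the common coverage, 203 with lists of equal length and 28 to 149 without a library (54 without scramble 1). Those called only in scramble numbered 22 to 46 without a library, with 46 without scramble 2 or knockout 2 and 35 without scramble 3. The difference in promoters called per library ranged from -60.3 to 243 without a library and was negative without knockout 1 (-6.33) or knockout 2. The share of peaks at promoters turned from 11.5 to -6.69 percentage points at the common coverage, which for this value and for peak width and peaks per promoter was likewise chosen after seeing the data. Among the genes named in the text, the rank differences that changed sign were those of Bnip3l (4.11) and Hist3h2a (17.2) by summit and, among genes that did not pass, Cpt2 by -log10 p (-6.86) and without scramble 1 (range without a library -0.95 to 18.9), Crat with the GC trend removed (-2.39), Ptpn13 without knockout 2 (-0.072 to 6.32), Slc22a5 without knockout 1 or scramble 3 (-5.68 to 12.3), Slc25a20 without scramble 3 (-1.07 to 2.13) and Tnfaip2 without knockout 1 (-13.1 to 2.17). The cause of these changes was not tested. The peak lists hold called peaks alone, so a promoter without a peak is below the caller's threshold at its depth and not shown to lack H3K9ac.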

Other observations

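The promoters with the smallest limma p after Cp, named with their values known, included 4 whose changes are not described above. Tfap2a, a transcription factor of epithelial cells, had percentiles of 99.8, 100.0 and 100.0 in scramble 1, 2 and 3 and of 50.4, 67.7 and 47.8 in CPT1a knockout 1, 2 and 3 (difference -44.6, limma adjusted p = 0.0108). It stood at the very top of every scramble library and around the middle of every knockout library. Ankrd1, a target of the YAP coactivator, had 57.01, 39.0 and 55.2 against 1.22, 4.82 and 1.67 (difference -47.8, limma adjusted p = 0.0108). Klf11, a repressor induced by TGF-beta, had 5.94, 9.98 and 10.1 against 74.1, 68.6 and 66.2 (difference 61.0, limma adjusted p = 0.0108), and Tfeb, a regulator of lysosome genes, had 6.02, 4.82 and 5.71 against 58.4, 46.6 and 71.0 (difference 53.2, limma adjusted p = 0.0108). As with all rank calls, none of the 4 passed without scramble 3.

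The 3 p200 genes among the largest losses lie in 1 cluster on chromosome 1 (chr1:173350879-174031810, GRCm38). Of 13 genes examined there, 4 were called in all 6 libraries and 7 in none. The fourth tested gene, Ifi203, singled out after its values were seen, had 84.0, 53.2 and 95.0 in scramble and 45.4, 9.68 and 26.4 in the knockout. Its groups did not overlap, the difference of -50.3 points did not pass (limma adjusted p = 0.0590), and in the knockout its strongest peak had the same percentiles as that of Mndal.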
